A study of Mus musculus with 6 samples.

Results

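The genes described here build, load and run the DNA replication machinery, and they were followed in mouse T helper cells grown with airborne particles. The group was defined by gene symbol and holds 47 of the 34745 genes in the deposited table: the 6 subunits of the origin recognition complex, the loaders and their inhibitor, the MCM genes, Cdc45 and GINS, the replicative polymerases with primase, the sliding clamp and its loader, replication protein A, the Okazaki fragment enzymes, chromatin assembly factor 1, and 3 regulators of entry into S phase. All 47 passed the filter on low counts, the lowest count of a member in a library being 233 (Rpa3) and the highest 13455 (Mcm6). The series compares PM2.5, fine particulate matter, with PBS. The PM2.5 group received a particle suspension at 100 µg/ml at 6 h of stimulation and the control group PBS alone, with 3 libraries in each group. Both groups started from naive CD4 T cells of the spleen of C57BL/6 mice, females aged 6 weeks, stimulated through CD3 and CD28 in Th17 conditions, with TGF-beta, IL-6, IL-2 and IL-23 added and IL-4 and IFN-gamma blocked by antibodies, and RNA was taken after 4 days. Whether libraries of 1 group come from separate mice or cultures is not given, and the p-values cover only the spread among these 6 libraries, which may be technical.

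Replication is licensed in G1 phase, when the origin recognition complex binds DNA and, with Cdc6 and Cdt1, loads rings of MCM2 to MCM7 onto it. Geminin, the product of Gmnn, then blocks Cdt1 so that an origin is not loaded again in the same cycle. At the start of S phase the loaded rings are joined by Cdc45 and the GINS complex to form the active helicase, behind which polymerases alpha, delta and epsilon copy the strands. T cells leave quiescence and divide fast after stimulation, and many of these genes are known targets of E2F transcription factors.

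Libraries held 25397965 to 27215853 counts in the PM2.5 group and 19511561 to 22353131 counts in the PBS group, so each PM2.5 library was deeper than each PBS library. Levels are given as CPM, the read count relative to the TMM-scaled library size, unless FPKM, which also divides by gene length, is named. Markers fixed as a check on the label were read as summed CPM. The 6 CD4 T cell markers summed to 1864 to 1895 CPM in PM2.5 and 2270 to 2292 CPM in PBS libraries, 5 of them lower and Cd28 higher, and the 4 Th17 markers to 2227 to 2711 against 3030 to 3113 CPM, 3 of them lower. CD8 and gamma-delta T cell markers summed to 26.1 to 29.9 CPM in PM2.5 and 56.4 to 58.6 CPM in PBS libraries, 3 of 4 lower and 1 higher, and NK cell markers to 7.84 to 8.68 against 34.0 to 42.6 CPM, with 1 of 4 lower (Klrd1), 1 higher and Ncr1 at 0 in all libraries. Macrophage markers summed to 2.97 to 3.45 CPM in PM2.5 and 4.62 to 6.06 CPM in PBS libraries (1 of 5 lower, Lyz2 at 0), and B cell markers to 0.242 to 0.451 against 1.01 to 1.65 CPM (1 of 5 lower, Ms4a1 at 0). Dendritic cell markers went the other way, at 2.43 to 3.30 CPM in PM2.5 and 0.442 to 0.653 CPM in PBS libraries (1 of 4 higher, Siglech at 0), and no erythroid marker was tested, with sums of at most 0.235 and 0.265 CPM and Hbb-bs and Hba-a1 at 0. The part of these markers in the results below was not tested. In bulk RNA, fewer cells in S phase and less RNA of these genes per cell cannot be told apart.

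Replication genes moved by modest amounts and in both directions. Of the 47, 11 were higher and 23 lower in PM2.5 cultures, and 13 did not pass (edgeR quasi-likelihood test over all 12967 genes tested, Benjamini-Hochberg adjusted p under 0.05). Many genes of the whole table passed too: 70.6% in either direction, 35.2% higher and 35.3% lower. The 34 calls among 47 members are 72.3%, close to that background, so the number of calls is not a result about these genes; 23.4% were higher and 48.9% lower. The groups did not overlap for 37 of the 47, or 78.7%, against 74.9% of all genes tested. The median log2 fold change was -0.15 over the members and -0.01 over all genes tested, and the median absolute change was 0.24 against 0.43. All members averaged more than 5 CPM. Over the 9920 genes at 5 CPM or more, these medians were 0.07 and 0.37. Of those genes 4099 were higher and 3277 lower, and the groups did not overlap for 7758. No member changed 2-fold or more and passed, against 18.9% of all genes tested and 13.3% of the 9920 genes that averaged 5 CPM or more; the count of such members was also 0 at an unadjusted p under 0.05, and 0 with DESeq2 and with limma.

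Summed over the 47 genes, the replication transcripts reached 4371, 4322 and 4342 CPM in the PM2.5 libraries, against 5006, 4920 and 4949 CPM in the PBS libraries. As a share of all counts without scaling they were 0.427, 0.422 and 0.424% in PM2.5 and 0.511, 0.50 and 0.508% in PBS libraries. The 3 PM2.5 libraries lay below the 3 PBS libraries on both scales. The sum is weighted by the most counted genes and is not a fall of every member, since 11 members were higher. Mcm6 averaged 336 CPM in PM2.5 and 588 CPM in PBS libraries, and Rpa1 170 and 285 CPM.

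**Figure D1:**
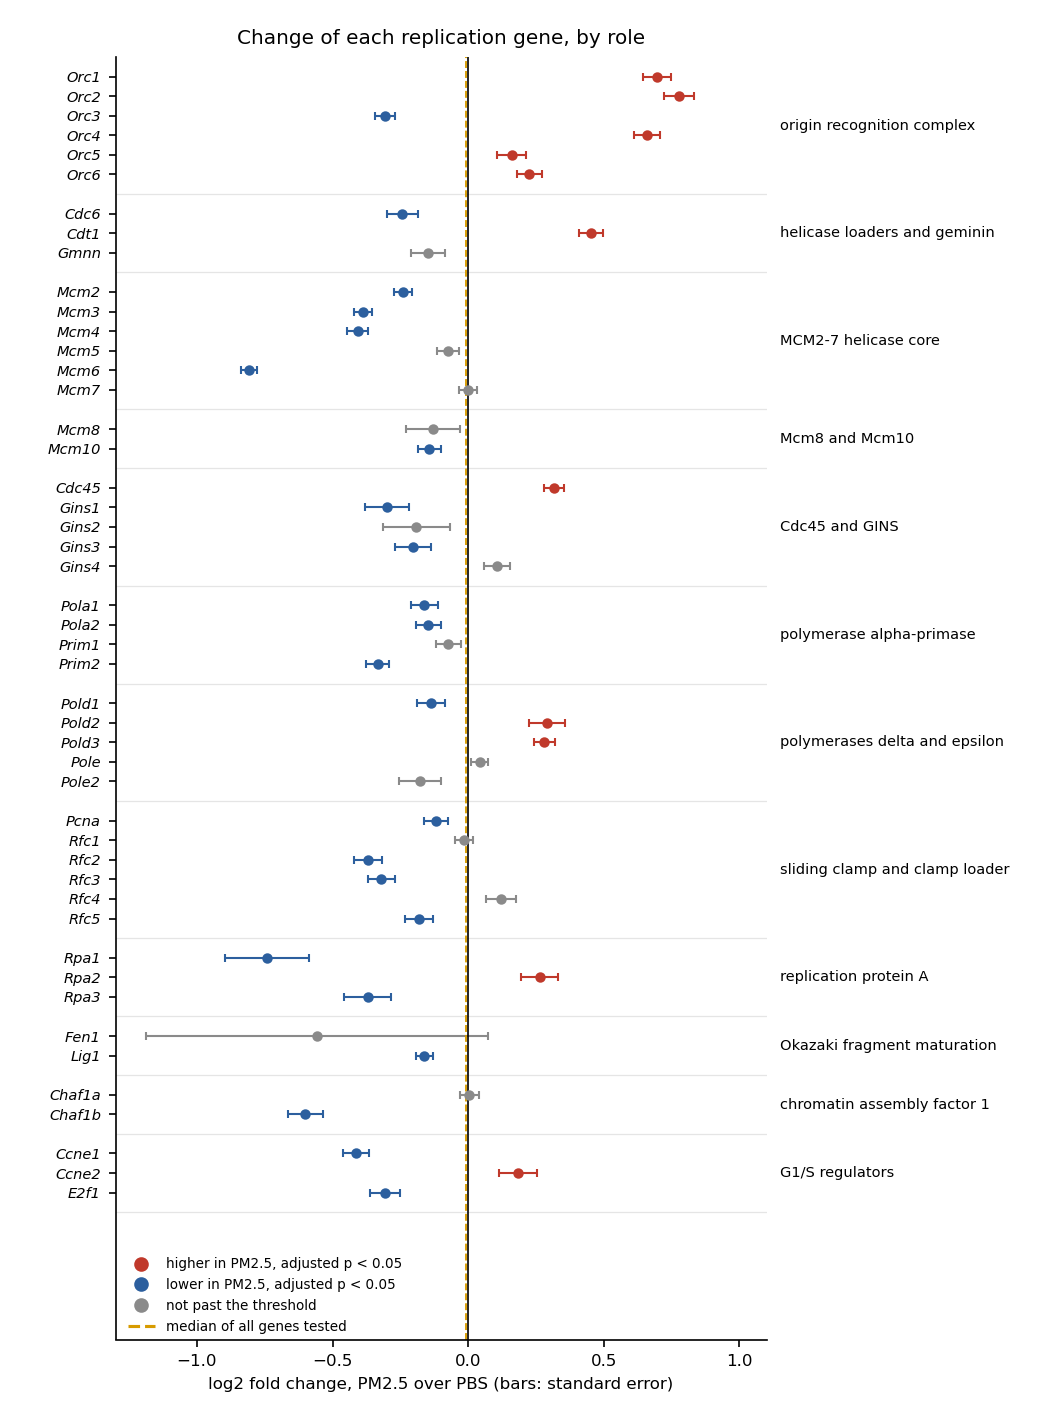
Log2 fold change of each of the 47 replication genes, PM2.5 over PBS, with bars for its SE, ordered by role; red points were higher and blue points lower at an adjusted p under 0.05, grey points did not pass, and the dashed line is the median of all genes tested. Of the 6 origin recognition genes 5 lie right of 0, the MCM2-7 genes lie at or left of it, and each point stays inside 1 log2 unit.

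The extremes of the group were Orc2, which rose, and Mcm6, which fell, and both act in licensing. Promoter stretches are shown here for 4 members whose stretch holds E2F motif letters and touches no annotated exon: Mcm6, with the largest fall, and Mcm5, another ring subunit, which did not pass; Chaf1b, which fell, and its partner Chaf1a, which did not pass. The last 3 were chosen after their values were seen. Each is the 250 bases before the gene's start in RefSeq, GRCm38.p6, written 5′ to 3′ on the gene's strand, with capitals on matches to the letters TTCCCGC, the letters TTCGCGC, the letters TTGCCGC or the letters TTGGCGC on either strand, where overlapping matches run together. The windows are chr1:128359706-128359955 (minus strand) for Mcm6, chr8:75109259-75109508 (plus) for Mcm5, chr16:93883651-93883900 (plus) for Chaf1b and chr17:56040166-56040415 (plus) for Chaf1a.
Mcm6: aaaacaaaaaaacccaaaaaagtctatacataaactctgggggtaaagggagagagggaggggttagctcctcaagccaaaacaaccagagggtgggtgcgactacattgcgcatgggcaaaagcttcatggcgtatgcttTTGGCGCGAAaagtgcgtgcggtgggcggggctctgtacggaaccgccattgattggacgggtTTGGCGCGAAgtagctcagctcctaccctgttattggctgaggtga
Mcm5: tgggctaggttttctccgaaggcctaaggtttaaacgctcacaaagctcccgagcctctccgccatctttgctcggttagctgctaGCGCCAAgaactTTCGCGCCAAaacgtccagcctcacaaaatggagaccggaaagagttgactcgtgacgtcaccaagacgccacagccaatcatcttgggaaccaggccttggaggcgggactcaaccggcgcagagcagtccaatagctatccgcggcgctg
Chaf1b: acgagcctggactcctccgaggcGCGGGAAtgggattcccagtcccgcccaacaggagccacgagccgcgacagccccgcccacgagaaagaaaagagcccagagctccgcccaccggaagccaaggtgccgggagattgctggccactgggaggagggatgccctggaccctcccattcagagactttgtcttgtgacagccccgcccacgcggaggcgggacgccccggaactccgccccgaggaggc
Chaf1a: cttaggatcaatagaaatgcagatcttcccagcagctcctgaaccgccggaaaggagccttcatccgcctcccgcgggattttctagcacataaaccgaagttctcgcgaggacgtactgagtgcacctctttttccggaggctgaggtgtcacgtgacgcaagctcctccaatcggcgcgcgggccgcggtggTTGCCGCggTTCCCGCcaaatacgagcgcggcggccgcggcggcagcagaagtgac
Mcm6 and Mcm5 both carried overlapping matches, 4 in Mcm6 and 3 in Mcm5, each in 2 stretches, while Mcm6 fell and Mcm5 did not pass. Chaf1b held 1 match and Chaf1a held 2. The stretch of Orc1, the member with the largest rise among those with a match, holds 1 match but falls in an annotated exon and is not printed. The stretch of E2f1 (chr2:154569427-154569676, minus strand) holds none. It touches an E2f1 exon and lies inside the gene's locus in the deposited table (chr2:154559407-154569892). The bases before the start of that locus were therefore not searched for E2f1.

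Of the 47 genes, 38 had a RefSeq promoter entry. Of these, 14 (36.8%) held an E2F match, against 7.89% of all 32851 promoter entries of the same length. Those entries belong to 27025 genes, so some genes count more than once, and they were not limited to the genes tested. Each member counts once, so the shares are not on a like footing. Only 11 of the 38 stretches touched no annotated exon. Those of E2f1, Cdc6 and Mcm7 lay inside the gene's locus in the deposited table, and the Cdc6 and Mcm7 matches are among the 14. Others ran partly into the locus. For Orc1, Prim1, Rfc3 and Rpa3, which are also among the 14, the match itself fell in locus bases. The counts here describe these stretches, which are not in every case the bases before the gene. Of the 14 with a match, 2 were higher, 8 lower and 4 did not pass; their median log2 fold change was -0.18. Of the 24 without, 8 were higher, 11 lower and 5 did not pass; their median was -0.13. The CCAAT box (letters CCAAT, either strand) was in 22 of 38 (57.9%) against 33.8% of all entries, and the CHR element (letters TTTGAA, either strand) in 4 of 38 (10.5%) against 16%. A match of letters is a description of the stretch and not a binding site.

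The origin recognition complex marks the places where replication can start, and its genes did not move as 1 unit. Of the 6 subunits 5 rose and Orc3 fell, with a median log2 fold change of 0.44, and no value of a PM2.5 library fell among those of the PBS libraries for any of the 6. The groups did not overlap for 74.9% of all genes tested, so such separation is common here. Orc2 (ENSMUSG00000026037, chr1:58462771-58505109 in mm10) had 114, 102 and 102 CPM in PM2.5 libraries, against 61.2, 65.4 and 59.0 CPM in PBS libraries. It was the member with the largest rise, 1.72-fold (log2 0.78, SE 0.05, adjusted p = 4.59e-07). Orc1 (ENSMUSG00000028587, chr4:108579423-108614833), a subunit with ATPase activity, had 34.2, 33.8 and 34.9 CPM against 20.9, 21.5 and 21.2 CPM in PBS libraries. That is a 1.62-fold rise with nearly no spread inside either group (log2 0.70, SE 0.05, adjusted p = 8.11e-07). Orc4 (ENSMUSG00000026761, chr2:48902824-48950277), also of the ATPase family, stood at 68.4, 65.4 and 63.6 CPM against 40.4, 42.5 and 42.0 CPM in PBS libraries, 1.58-fold higher (log2 0.66, SE 0.05, adjusted p = 5.19e-07).

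Orc3, the partner that Orc2 binds in the complex, moved against the others. It had 74.1, 73.9 and 72.4 CPM in PM2.5 libraries and 91.8, 92.1 and 88.8 CPM in PBS libraries (log2 -0.31, SE 0.04, adjusted p = 2.56e-05). Orc6 rose by less, with 42.7, 44.4 and 44.5 CPM in PM2.5 and 37.6, 37.2 and 37.8 CPM in PBS libraries (log2 0.22, SE 0.05, adjusted p = 0.00137). Orc5 had the smallest difference of the 6, at 40.4, 37.3 and 40.1 CPM against 34.7, 36.1 and 34.6 CPM in PBS libraries (log2 0.16, SE 0.05, adjusted p = 0.0194). The call on Orc5 was lost without PM2.5 library 1 or 3 (adjusted p 0.0637 and 0.0562) and without PBS library 1 or 3 (0.0611 and 0.0584), and under 6 other settings. Within the complex, counted as shares of the summed FPKM of the 6 subunits, Orc2 took 29.0 ± 1.35% in PM2.5 and 21.6 ± 0.82% in PBS libraries, and Orc3 12 ± 0.17% against 18.9 ± 0.25% (SD, n = 3). These shares were chosen after the values were seen and were not tested. Exons of Orc2 share 29.8% of their bases with Nif3l1 on the opposite strand, which rose too (log2 0.38). For Orc1 and Orc4 the overlap is 10.8% with Gm12743 and 5.98% with Acvr2a, both lower in PM2.5 (log2 -1.39 and -1.50). Mean levels were 38.2 CPM for Nif3l1, 0.778 CPM for Gm12743 and 49.5 CPM for Acvr2a. The strand setting of the counting is not given in the sources used here, so reads of overlapping genes could be shared.

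**Figure D2:**
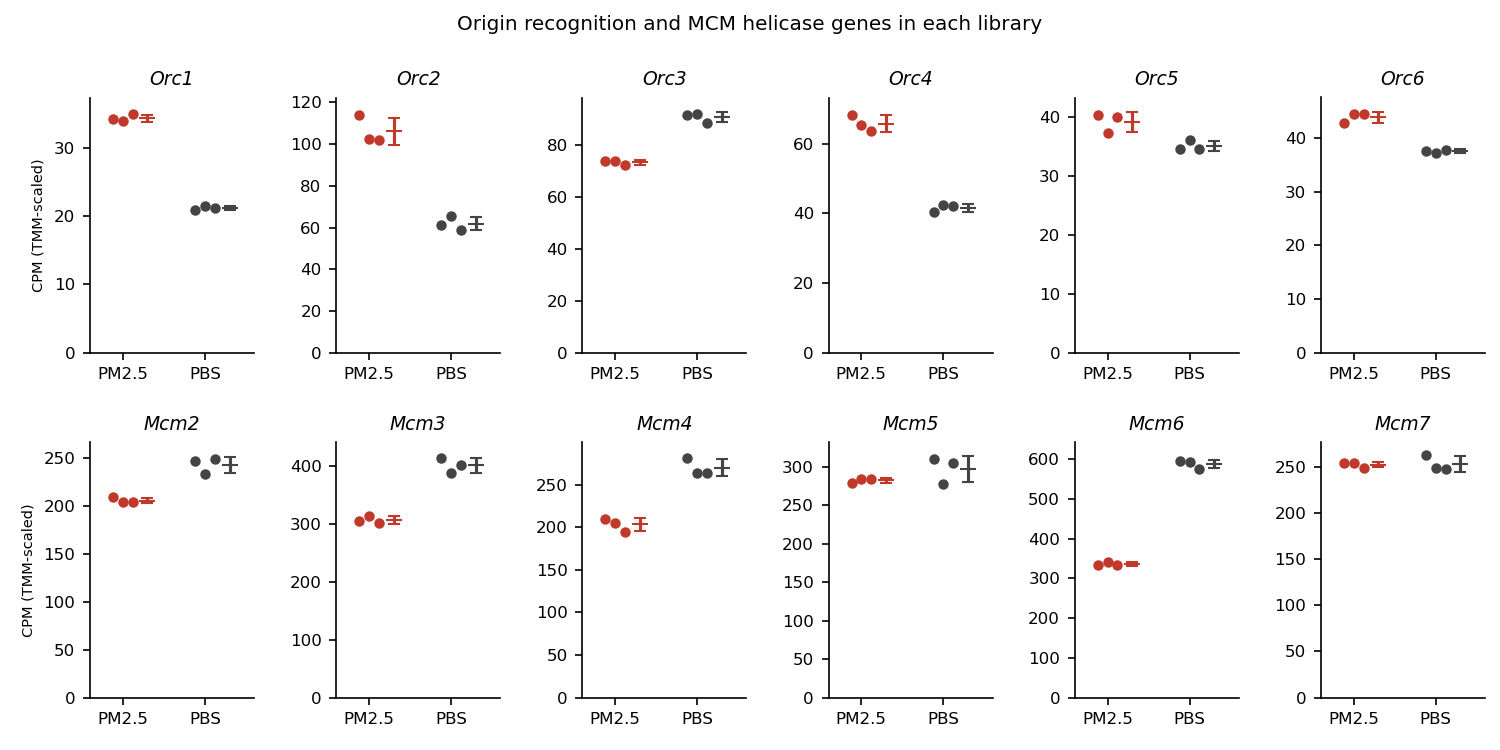
CPM of the 6 origin recognition subunits and the 6 MCM2-7 subunits in each library, PM2.5 left of PBS, with the group mean and SD beside the points. Orc1, Orc2 and Orc4 lie higher in every PM2.5 library, Orc3 and Mcm6 lie lower, and the points of Mcm5 and Mcm7 overlap between the groups.

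The loaders Cdc6 and Cdt1, which bring MCM rings to the origin, moved in opposite directions. Cdt1 had 94.7, 95.2 and 95.6 CPM in PM2.5 libraries, against 73.3, 65.6 and 69.7 CPM in PBS libraries, a 1.37-fold rise (log2 0.45, SE 0.04, adjusted p = 6.76e-06). Cdc6, an ATPase that acts with the origin complex, had 50.1, 46.8 and 45.9 CPM against 53.3, 55.8 and 59.9 CPM in PBS libraries (log2 -0.24, SE 0.06, adjusted p = 0.00328). Gmnn, the inhibitor of Cdt1, had 38.6, 40.5 and 34.9 CPM against 41.4, 41.5 and 43.5 CPM in PBS libraries and did not pass, although the groups did not overlap (log2 -0.15, SE 0.06, adjusted p = 0.0528). Without PM2.5 library 2 it passed (log2 -0.19, adjusted p = 0.0260), as it did with library totals only, with a filter at 5 CPM and in both limma fits of FPKM.

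Ratios inside a library do not depend on how libraries are scaled, and 5 were taken from FPKM. The ratio of Cdt1 to Gmnn was 2.21, 2.12 and 2.47 in PM2.5 libraries, against 1.6, 1.42 and 1.44 in PBS libraries, a difference of 0.61 on the log2 scale. Each PM2.5 library had more Cdt1 per Gmnn transcript than any PBS library. An exact two-sided permutation test gave p = 0.1, the smallest that 3 libraries against 3 allow, and 0.125 after adjustment over the 5 ratios.

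The MCM2-7 ring is the helicase that opens the DNA, and Mcm5 and Mcm6 had the highest mean FPKM of the members. Of the 6 subunits 4 fell and 2 did not pass; the median log2 fold change was -0.31. Mcm6 (ENSMUSG00000026355, chr1:128331590-128359664) had 333, 341 and 334 CPM in PM2.5 libraries, against 595, 594 and 575 CPM in PBS libraries. It was the member with the largest fall that passed, 1.75-fold (log2 -0.81, SE 0.03, adjusted p = 1.88e-09). Mcm4 had 210, 205 and 195 CPM against 281, 264 and 264 CPM in PBS libraries (log2 -0.41, SE 0.04, adjusted p = 5.60e-06). Mcm3 had 305, 314 and 302 CPM against 415, 389 and 403 CPM in PBS libraries (log2 -0.39, SE 0.03, adjusted p = 1.88e-06). Mcm2 fell least of the 4, at 209, 204 and 204 CPM against 247, 233 and 249 CPM in PBS libraries (log2 -0.24, SE 0.03, adjusted p = 9.83e-05).

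Mcm5 and Mcm7, the other two subunits of the ring, did not pass. Mcm5 had 279, 283 and 284 CPM in PM2.5 and 309, 277 and 304 CPM in PBS libraries, where PBS library 2 overlaps the PM2.5 values (log2 -0.07, SE 0.04, adjusted p = 0.127). Without PBS library 2 the difference in Mcm5 passed (log2 -0.12, adjusted p = 0.00329), and also under the same 4 settings named for Gmnn. Mcm7 had 255, 254 and 249 CPM against 263, 248 and 247 CPM in PBS libraries (log2 -0.00, SE 0.03, adjusted p = 0.964), and its sign turned under 3 alternatives; 7.25% of its exon bases overlap Ap4m1.

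The ring holds 1 of each subunit, while the FPKM of the 6 genes differed in both groups. Comparing genes by FPKM rests on the gene lengths behind the deposited values. Unequal amounts of the 6 transcripts therefore cannot be read from the shares below. As shares of the summed FPKM of the 6 genes, Mcm6 made up 19.1 ± 0.18% in PM2.5 and 26.1 ± 0.83% in PBS libraries, and Mcm5 27.2 ± 0.46% against 22.4 ± 0.81% (SD, n = 3). Mcm7 made up 12.3 ± 0.06% in PM2.5 and 9.63 ± 0.15% in PBS libraries. By FPKM, Mcm5 stood above Mcm6 in each PM2.5 library, and Mcm6 above Mcm5 in each PBS library. By CPM, which does not divide by gene length, Mcm6 stood above Mcm5 in every library of both groups. The means of the others were 7.59% in PM2.5 and 7.0% in PBS for Mcm2, 15.1% and 15.5% for Mcm3, and 18.7% and 19.4% for Mcm4. These shares were chosen after the values were seen and were not tested.

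**Figure D3:**
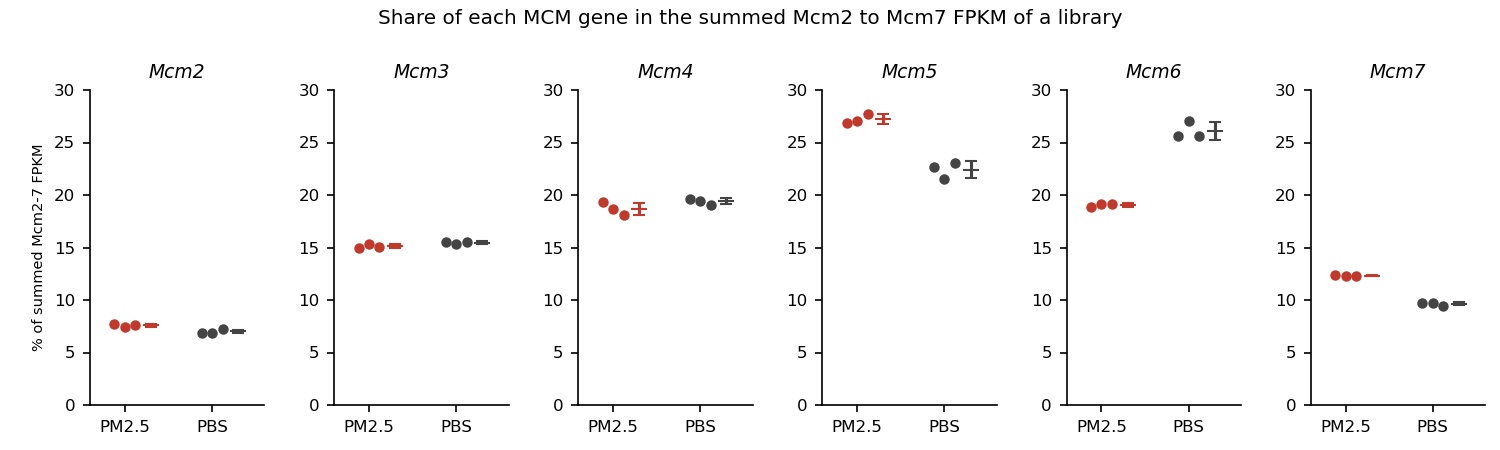
Share of each MCM2-7 subunit in the summed FPKM of the 6 genes, in percent, for each library, PM2.5 left of PBS, with the group mean and SD beside the points. The share of Mcm6 averages 19.1% in PM2.5 and 26.1% in PBS libraries, and that of Mcm5 27.2% and 22.4%.

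Mcm10 and Mcm8 are not subunits of the ring. Mcm10, which helps to activate the helicase, had 61.9, 62.7 and 60.7 CPM in PM2.5 and 69.7, 65.2 and 69.7 CPM in PBS libraries (log2 -0.14, SE 0.04, adjusted p = 0.0125), a call lost without PM2.5 library 3 (adjusted p = 0.0540). Mcm8, which acts in recombination repair, had 16.7, 16.2 and 15.4 CPM against 15.4, 20.5 and 17.1 CPM in PBS libraries and did not pass (log2 -0.13, SE 0.10, adjusted p = 0.265). The FPKM ratio of Mcm10 to Mcm2 was 0.247, 0.256 and 0.248 in PM2.5 libraries, against 0.235, 0.233 and 0.233 in PBS libraries. The ratio was higher by 0.10 on the log2 scale, without overlap (exact permutation p = 0.1, adjusted 0.125).

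Cdc45 and the 4 GINS subunits turn the loaded ring into the moving helicase. Cdc45 rose, with 90.9, 94.2 and 92.4 CPM in PM2.5 and 75.8, 72.2 and 74.7 CPM in PBS libraries (log2 0.32, SE 0.04, adjusted p = 2.64e-05); 5.96% of its exon bases overlap Ufd1, which was also higher (log2 0.35). Among the GINS genes Gins1 fell, with 14.7, 12.7 and 14.1 CPM against 16, 17.3 and 17.8 CPM in PBS libraries (log2 -0.30, SE 0.08, adjusted p = 0.00670). Gins3 fell too, with 19.5, 19.1 and 17.5 CPM against 21.6, 21.7 and 21.3 CPM in PBS libraries (log2 -0.20, SE 0.07, adjusted p = 0.0172), and lost its call without PM2.5 library 3 (adjusted p = 0.0769) and with DESeq2 (0.0788).

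The remaining GINS genes did not pass. Gins4 had 48.0, 50.4 and 47 CPM in PM2.5 and 44.4, 46.0 and 44.7 CPM in PBS libraries (log2 0.11, SE 0.05, adjusted p = 0.0676), and passed without PM2.5 library 3 (adjusted p = 0.0492) and with gene length offsets (0.00288). Gins2 had 22.2, 25.4 and 20.0 CPM against 25, 22.5 and 29.7 CPM in PBS libraries, with overlap between the groups (log2 -0.19, SE 0.12, adjusted p = 0.198). The Gins2 values are uncertain because 67.3% of its exon bases overlap Gse1 on the opposite strand, which fell (log2 -0.77). As a description, Gins4 held 64.1% of the summed GINS FPKM in PM2.5 and 58.5% in PBS libraries.

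Polymerase alpha and primase lay down the primers from which the other polymerases extend, and 3 of their 4 genes fell. Prim2, the large primase subunit, had 40.9, 40.9 and 41.3 CPM in PM2.5 and 52.2, 51.5 and 51.4 CPM in PBS libraries (log2 -0.33, SE 0.04, adjusted p = 4.76e-05). Prim1, the catalytic subunit, had 71.2, 74.4 and 67.8 CPM against 74.1, 77.5 and 73 CPM in PBS libraries, which overlapped, and did not pass (log2 -0.07, SE 0.05, adjusted p = 0.178), though it passed under the 4 settings named for Gmnn (log2 -0.14 with library totals, adjusted p = 0.0196). The FPKM ratio of Prim1 to Prim2 was 1.83, 1.91 and 1.72 in PM2.5 libraries, against 1.49, 1.58 and 1.49 in PBS libraries. It was higher by 0.26 on the log2 scale in PM2.5 cultures without overlap (exact permutation p = 0.1, adjusted 0.125).

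The 2 polymerase alpha subunits fell by little. Pola1, the catalytic subunit, had 72.0, 74.3 and 69.3 CPM in PM2.5 and 79.2, 85.4 and 76.5 CPM in PBS libraries (log2 -0.16, SE 0.05, adjusted p = 0.0139). Pola2, the accessory subunit, had 92.9, 91.2 and 99.3 CPM against 110, 102 and 102 CPM in PBS libraries (log2 -0.15, SE 0.05, adjusted p = 0.0147). Pola1 lost its call without PM2.5 library 3 (adjusted p = 0.0610), and Pola2 without PM2.5 library 1 (0.0516), PM2.5 library 2 (0.0586) or PBS library 1 (0.0597).

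Polymerases delta and epsilon copy the bulk of the lagging and leading strands, and their catalytic subunits differed by little between the groups. Pold1, the catalytic subunit of delta, had 90.7, 90.5 and 89.8 CPM in PM2.5 and 101, 91.1 and 106 CPM in PBS libraries (log2 -0.14, SE 0.05, adjusted p = 0.0358). Its call was lost without any of the 3 PM2.5 libraries in turn (adjusted p 0.0821, 0.0824 and 0.102), without PBS library 1 (0.0944) or 3 (0.132), and with DESeq2 (0.0587). Pole, the catalytic subunit of epsilon, did not pass, at 165, 162 and 169 CPM in PM2.5 and 160, 160 and 162 CPM in PBS libraries (log2 0.04, SE 0.03, adjusted p = 0.234), and its sign turned when libraries were scaled by their totals (log2 -0.02).

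Of the accessory subunits of delta, the members Pold2 and Pold3 rose, and Pold4, which is not a member and was read from the fork accessory list, fell. Pold3 had 84.8, 87.5 and 87.1 CPM in PM2.5 and 69.2, 71.0 and 73.3 CPM in PBS libraries (log2 0.28, SE 0.04, adjusted p = 8.29e-05). Pold2 had 58.2, 49.1 and 52.2 CPM against 42.9, 41.9 and 45.6 CPM in PBS libraries (log2 0.29, SE 0.07, adjusted p = 0.00277). Neither gene had a PM2.5 value inside the PBS range. Pold4, the smallest subunit, had 32.7, 36.0 and 30.8 CPM in PM2.5 and 52.7, 50.8 and 53.5 CPM in PBS libraries, also without overlap (log2 -0.66, SE 0.06, adjusted p = 4.56e-06). Pole2, the second subunit of epsilon, had 14.4, 12.6 and 12.7 CPM against 15.2, 15.3 and 14.5 CPM in PBS libraries and did not pass (log2 -0.18, SE 0.08, adjusted p = 0.0626), but passed without PM2.5 library 1 (log2 -0.24, adjusted p = 0.0241) and under the 4 settings named for Gmnn.

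The sliding clamp ties the polymerases to DNA and the RFC complex loads it. Pcna, the clamp, had 231, 256 and 241 CPM in PM2.5 and 276, 251 and 264 CPM in PBS libraries, and the groups overlapped (log2 -0.12, SE 0.05, adjusted p = 0.0400). This call was lost without PM2.5 library 1 (adjusted p = 0.167) or 3 (0.115) and without PBS library 1 (0.138) or 3 (0.0846), and under 3 other settings. Reads may also be divided between Pcna and its pseudogene Pcna-ps2, which had 118, 121 and 112 CPM in PM2.5 and 123, 121 and 121 CPM in PBS libraries. Pcna and Pcna-ps2 together came to 360 ± 14.8 CPM in PM2.5 and 385 ± 13.5 CPM in PBS libraries (SD, n = 3).

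Of the 5 clamp loader genes 3 fell and 2 did not pass. Rfc2 had 58.7, 57.7 and 60.4 CPM in PM2.5 and 80.5, 71.3 and 76.4 CPM in PBS libraries (log2 -0.37, SE 0.05, adjusted p = 7.80e-05). Rfc3 had 38.4, 38.7 and 36.0 CPM against 47.8, 47.4 and 46.1 CPM in PBS libraries (log2 -0.32, SE 0.05, adjusted p = 0.000193), and Rfc5 42.5, 47.1 and 47.1 CPM against 52.6, 50.6 and 51.9 CPM (log2 -0.18, SE 0.05, adjusted p = 0.0109). In these 3 the PM2.5 libraries lay below the PBS libraries without overlap.

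Rfc1, the large subunit, had 141, 134 and 139 CPM in PM2.5 and 140, 142 and 137 CPM in PBS libraries (log2 -0.02, SE 0.03, adjusted p = 0.690), and passed with a filter at 5 CPM (log2 -0.08, adjusted p = 0.0447). Rfc4 had 29.8, 29.1 and 30.1 CPM against 28.4, 26.6 and 26.8 CPM in PBS libraries (log2 0.12, SE 0.06, adjusted p = 0.0691) but passed with thinned counts (0.0448) and gene length offsets (0.0226), and 12.7% of its exon bases overlap Eif4a2, which was higher (log2 0.70). Exons of Rfc2 overlap Lat2 over 15.1% of their bases, and those of Rfc5 overlap Wsb2 over 10.7%. Both neighbours lie on the opposite strand and were lower in PM2.5 (log2 -1.47 for Lat2 and -0.28 for Wsb2). Lat2 averaged 5.87 CPM and Wsb2 64.8 CPM. Shared reads could enter the values of Rfc2 and Rfc5. This was not tested.

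Replication protein A coats the single strands behind the helicase, and its 3 subunits did not move together. Rpa1 (ENSMUSG00000000751, chr11:75298166-75348324), the large DNA-binding subunit, had 207, 150 and 155 CPM in PM2.5 and 297, 296 and 262 CPM in PBS libraries. It was 1.67-fold lower, with a wide spread in the PM2.5 group, where library 1 stood above the other two (log2 -0.74, SE 0.15, adjusted p = 0.0105). Rpa2, the middle subunit, rose instead, with 74.9, 73 and 62.5 CPM against 60.0, 56.4 and 59.0 CPM in PBS libraries (log2 0.26, SE 0.07, adjusted p = 0.00561). Rpa3, the small subunit and the least counted member, had 8.76, 9.99 and 10.2 CPM against 12.5, 11.9 and 13.0 CPM in PBS libraries (log2 -0.37, SE 0.09, adjusted p = 0.00305). As a description, Rpa1 made up 49.3% of the summed FPKM of the 3 genes in PM2.5 and 62.9% in PBS libraries, and Rpa2 35.6% and 22.5%.

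Fen1 and Lig1 trim and seal Okazaki fragments. Lig1, the ligase, had 130, 128 and 133 CPM in PM2.5 and 148, 146 and 143 CPM in PBS libraries (log2 -0.16, SE 0.03, adjusted p = 0.00114). Of the exon bases of Lig1, 5.79% overlap Zswim9, which was lower too (log2 -0.58). Fen1, the flap nuclease, jumped between libraries of the same group, with 43.0, 36.2 and 113 CPM in PM2.5 and 51.0, 116 and 115 CPM in PBS libraries. It did not pass (log2 -0.56, SE 0.63, adjusted p = 0.473), and its log2 fold change ranged from -1.24 without PM2.5 library 3 to -0.27 without PM2.5 library 2. Fen1 was the only member of the 47 with a 2-fold range inside a group, which 98 of the 7440 genes at 20 CPM or more (1.32%) showed, and 27 of them (0.363%) in both groups.

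Chromatin assembly factor 1 places histones on the newly made DNA, and its large and middle subunits, whose promoter stretches are given above, differed. Chaf1b (ENSMUSG00000022945, chr16:93883901-93906115), the middle subunit, had 23.8, 20.8 and 21.9 CPM in PM2.5 and 32.7, 35.1 and 33.1 CPM in PBS libraries, a 1.52-fold fall (log2 -0.60, SE 0.07, adjusted p = 1.44e-05). Chaf1a, the large subunit, had 119, 121 and 124 CPM against 124, 117 and 122 CPM in PBS libraries and did not pass (log2 0.00, SE 0.04, adjusted p = 0.920), with its sign turned when scaled by library totals (log2 -0.06). The Chaf1a values are uncertain, since 52.5% of its exon bases overlap Ubxn6 on the opposite strand, which was higher in PM2.5 (log2 0.48).

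The 3 regulators of S phase entry were Ccne1 and Ccne2, the cyclins E that activate Cdk2, and E2f1, a transcription factor for replication genes. Ccne1 fell, with 35.3, 34.2 and 36.3 CPM in PM2.5 and 47.6, 47.5 and 46.0 CPM in PBS libraries (log2 -0.41, SE 0.05, adjusted p = 2.17e-05). Ccne2 rose, with 53.9, 58.9 and 51.1 CPM against 45.3, 52.6 and 46.5 CPM in PBS libraries, which overlapped (log2 0.18, SE 0.07, adjusted p = 0.0386). The call on Ccne2 was lost without PM2.5 library 1 (adjusted p = 0.0681) or 2 (0.131), without PBS library 1 (0.139) or 3 (0.124), and under 5 other settings; 17.4% of its exon bases overlap Ints8. E2f1 fell, with 23.1, 22.5 and 24.1 CPM in PM2.5 and 28.3, 29.1 and 28.9 CPM in PBS libraries (log2 -0.31, SE 0.06, adjusted p = 0.000634).

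The FPKM ratio of Ccne1 to Ccne2 was 1.35, 1.20 and 1.47 in PM2.5 libraries, against 2.18, 1.87 and 2.05 in PBS libraries, a difference of -0.60 on the log2 scale. All 3 PM2.5 libraries lay below the 3 PBS libraries (exact permutation p = 0.1, adjusted 0.125). For Orc1 to Orc2, both of which rose, the ratio was 0.321, 0.352 and 0.364 in PM2.5 and 0.365, 0.350 and 0.382 in PBS libraries. These overlapped, with a difference of -0.08 on the log2 scale (exact permutation p = 0.4, adjusted 0.4).

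**Figure D4:**
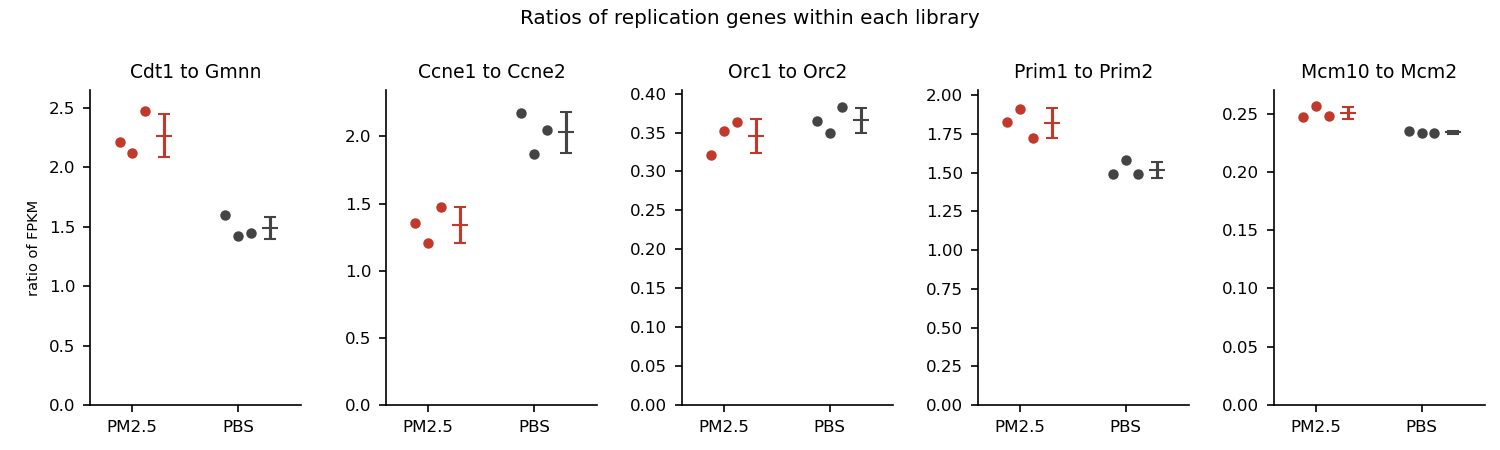
FPKM ratios of 5 gene pairs within each library, PM2.5 left of PBS, with the group mean and SD beside the points; axes start at 0. Groups do not overlap for Cdt1 to Gmnn, Ccne1 to Ccne2, Prim1 to Prim2 and Mcm10 to Mcm2, and overlap for Orc1 to Orc2.

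Levels of the members per length ran over a wide range, with mean FPKM over the 6 libraries between 3.79 (Mcm8) and 84.6 (Mcm5). Mcm5 averaged 80.6 FPKM in PM2.5 and 88.7 FPKM in PBS libraries, Mcm6 56.4 and 103 FPKM, and Pcna 67.6 and 76.7 FPKM. Mcm4 averaged 55.4 FPKM in PM2.5 and 76.8 FPKM in PBS libraries, Mcm3 44.8 and 61.3 FPKM, and Cdt1 42.5 and 32.5 FPKM. Level and change showed little relation over the 47 genes (Spearman's rho 0.09, Pearson's r -0.06 on the log2 level), as a description over genes that share the same libraries.

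**Figure D5:**
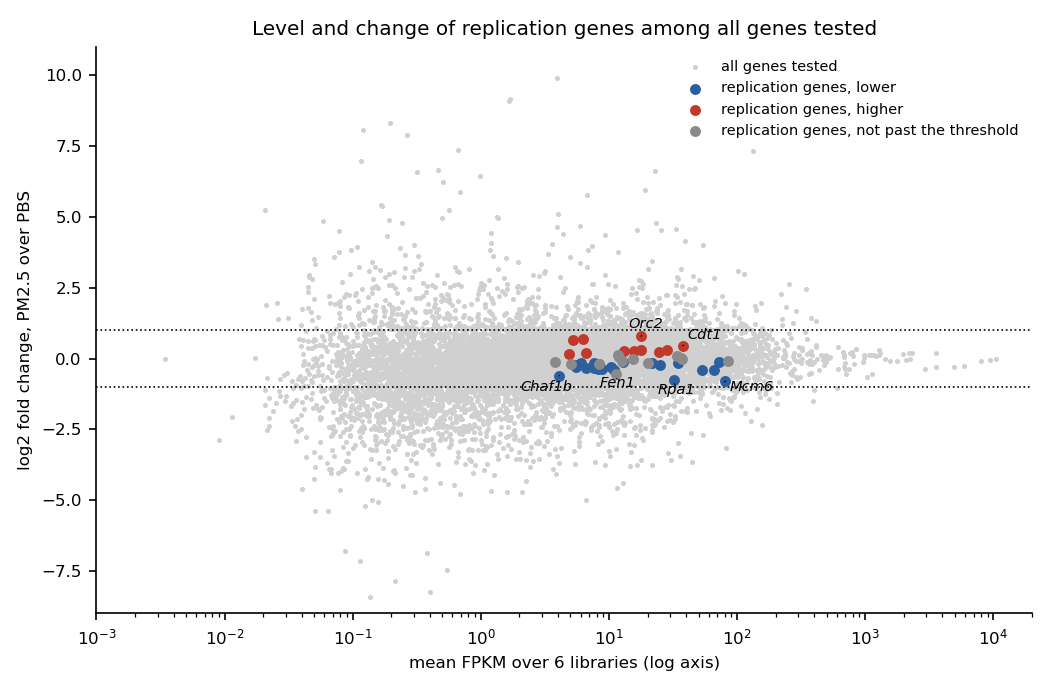
Log2 fold change, PM2.5 over PBS, against mean FPKM over the 6 libraries on a log axis; small points are the 12967 genes tested and large points the 47 replication genes (red higher, blue lower, grey not past the threshold), and dotted lines mark a 2-fold change. The replication genes lie within 1 log2 unit of 0 at every level, while other genes of like level spread further in both directions.

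Genes around the fork that are not members were read from 6 lists, 104 genes in all, chosen by known role. Of these 25 were higher, 49 lower and 30 did not pass; the median log2 fold change was -0.13. Over all genes tested 70.6% passed, 35.2% higher and 35.3% lower, so the number of calls over the 104 genes is near that background. The counts of each list below are a description beside the same shares, and no list was tested against other genes. Among 17 genes of origin firing and licensing control 7 rose and 1 fell. Mtbp, a partner of the origin firing factor treslin, had 111, 103 and 100 CPM in PM2.5 and 44.9, 48.9 and 42.6 CPM in PBS libraries, more than a 2-fold rise (log2 1.20, SE 0.06, adjusted p = 2.54e-08). Ddb1, an adaptor of the ubiquitin ligase that destroys Cdt1 in S phase, rose by less (log2 0.54, adjusted p = 3.54e-08), and Cul4b, a scaffold of such ligases, was the 1 that fell (log2 -0.14, adjusted p = 0.00679).

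Deoxynucleotide supply feeds the polymerases, and 9 of its 11 genes fell while 2 rose, with a median log2 fold change of -0.35, against -0.01 over all genes tested. Rrm2, the S phase subunit of ribonucleotide reductase, had 183, 184 and 178 CPM in PM2.5 and 326, 327 and 325 CPM in PBS libraries (log2 -0.84, adjusted p = 1.82e-09). Samhd1, which degrades deoxynucleotides, fell too (log2 -0.74), and the alternative reductase subunit Rrm2b and the deaminase Dctd rose (log2 0.67 and 0.70). The E2F, DP and pocket protein list had 10 of 14 genes lower and 1 higher. Rb1, the pocket protein that restrains E2F, had 125, 121 and 125 CPM in PM2.5 and 226, 247 and 223 CPM in PBS libraries (log2 -0.91, SE 0.04, adjusted p = 2.08e-08), E2f2 fell (log2 -0.65) and E2f5 rose (log2 0.52).

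The other lists were more mixed. Of 24 fork accessory and maturation genes 8 rose and 11 fell, among them the histone chaperone Asf1a (log2 0.67) and the polymerase epsilon subunit Pole3 (log2 0.50) upward, and the nuclease Dna2 (log2 -0.66) and the checkpoint mediator Clspn (log2 -0.48) downward. Of 10 replication checkpoint genes 4 rose, including Rad17 (log2 0.99) and the kinase Atr (log2 0.36), and 1 fell, the phosphatase Cdc25a (log2 -0.15, adjusted p = 0.0206). Of 28 genes of G2 and mitosis 17 fell, including Ccnb2 (log2 -0.70) and Top2a (log2 -0.45), and 3 rose, including Ndc80 (log2 0.26) and Kif23 (log2 0.25). Their medians were -0.11, 0.15 and -0.16 on the log2 scale, and 0.13 for origin firing and -0.24 for the E2F list.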

How the data were processed

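RNA-seq of 6 libraries was read from 1 table in which the authors deposited raw counts per Ensembl gene and FPKM, per the file headers. A length per gene was derived from these same counts and FPKM. With it, the FPKM equal count over library total and length to within 0.000714% for 9540 well counted genes. The check shows only that 1 length per gene held across the 6 libraries, not that the length is right. The submitters' processing notes list TopHat2 2.0.6 and mm10. How reads were counted (program, annotation, strand) is not stated in the labels or headers. Members and lists were chosen with earlier results of these data known.

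Genes passing filterByExpr (minimum count 10, minimum total 15; 12967 genes, 21778 left out) were fitted with R 4.3.3 and its package edgeR 4.0.16, using TMM factors (0.978 in PM2.5, 1.02 to 1.03 in PBS libraries) and the robust quasi-likelihood F test over the 6 libraries, two-sided, adjusted over all genes by Benjamini-Hochberg at 0.05. The script was tested on simulated data. The common biological coefficient of variation was 8.17%. A count of 0 allows 0.113 to 0.121 CPM in PM2.5 and 0.131 to 0.151 CPM in PBS libraries, a floor of 3 counts that covers counting error only. Ratios were tested exactly with scipy 1.17.1. All 47 members are given with values. Named list genes are the 2 with the smallest adjusted p in each direction. Pold4 was named outside that rule, beside the other delta subunits. DESeq2 1.42.0 and limma 3.58.1 (pseudocounts 1 and 0.1) were among 16 alternatives. Replicates of a group differed by 7.57 to 9.89 chi-square per degree of freedom, more than counting error alone. That spread does not show whether they came from separate mice or cultures. Exons and overlaps come from GENCODE, promoter stretches from RefSeq (GRCm38.p6).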

Additional observations from a re-analysis of the deposited data

How the results depend on the processing

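Of the 34 called members, 26 (9 higher, 17 lower) kept their call in all 16 alternatives, 8 lost it in some and 0 changed direction; of the 13 without a call 7 gained one somewhere. The counts of members ran from 9 to 13 higher and 18 to 28 lower. Depth limits little here, as no member had fewer than 233 counts. The median log2 fold change of the members, -0.15, was -0.21 when scaled by library totals only and -0.21 after filtering at 5 CPM. It was -0.20 and -0.21 in limma fits of FPKM (pseudocount 1 and 0.1), and -0.16 to -0.12 when 1 library was left out. Under these 4 settings the median over the genes shared with the TMM fit moved too, by about -0.06 to -0.07.

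Signs turned for 4 members without a call. Mcm7 was 0.0051 with no filter, 0.015 without PM2.5 replicate 3 and 0.024 without PBS replicate 1. Rfc1 was 0.0083 without PM2.5 replicate 2, in a range of -0.031 to 0.0083 over the libraries left out. Scaled by totals, filtered at 5 CPM, and in limma with pseudocounts 1 and 0.1, Pole was -0.021, -0.023, -0.020 and -0.021, and Chaf1a -0.060, -0.061, -0.058 and -0.059. Chaf1a was also -0.004 without PM2.5 replicate 3 and -0.018 without PBS replicate 2, and at most 0.022 (without PM2.5 replicate 1). The cause was not tested.

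The replicate numbers are shared by the groups, but deviations of same-numbered libraries correlated at only 0.028, 0.014 and 0.046, so the numbers were not taken as pairs, although each library correlated best with its own number. With a replicate block 11 members were higher and 22 lower, and over all genes 4534 and 4468; Pcna lost its call (adjusted p = 0.107). The ratios gave a blocked p of 0.25 by sign flips of the paired differences, the smallest p that test can give here, and 0.5 for Orc1 to Orc2. Leaving out 1 library gave log2 differences of 0.542 to 0.657 for Cdt1 to Gmnn, -0.667 to -0.522 for Ccne1 to Ccne2, 0.224 to 0.299 for Prim1 to Prim2, 0.080 to 0.107 for Mcm10 to Mcm2 and -0.120 to -0.029 for Orc1 to Orc2.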

Other observations

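Several members start next to a gene on the opposite strand, within 1000 bases, and the neighbours did not always move with them. Orc1 rose (log2 0.70) while Prpf38a, which starts 87 bases away, was at 0.05 (SE 0.05, adjusted p = 0.326, edgeR). Rpa1 fell (log2 -0.74) while Smyd4, 109 bases away, was at 0.18 (SE 0.08, adjusted p = 0.0516), and Rpa3 fell (log2 -0.37) while Umad1, 115 bases away, rose (log2 0.29, SE 0.11, adjusted p = 0.0442).

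Other pairs moved the same way. Orc3 and Rars2, whose starts lie 13 bases apart, both fell (log2 -0.31 and -0.37), as did Gins1 and Abhd12 at 659 bases (log2 -0.30 and -0.38). Mcm4 fell (log2 -0.41) and Prkdc, the catalytic subunit of the DNA-dependent protein kinase, 466 bases away, fell further (log2 -0.96). Pole, which did not pass, starts 120 bases from Pxmp2, which fell (log2 -0.70, SE 0.20, adjusted p = 0.0114). Mcm8 and Trmt6, 86 bases apart, did not pass (log2 -0.13 and 0.44).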
